A study of Mus musculus with 40 samples.

Results

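The tissue of the resected rib was compared between 2 days after resection (2dpr) and the day of resection itself (0dpr) in skeletally mature mice. All 4 libraries labelled as mature at 2dpr and all 4 labelled as mature at 0dpr were used, which is 8 of the 40 libraries of the series, and every one of the 21204 features in the filtered count table was tested. The mature mice were wild type and older than 10 months, and the immature mice that appear below for reference were wild type and aged 7 weeks, and per the study's methods the mice used to characterise healing were females. The labels name no transgene or drug for either group, and at both days a rib segment had been removed. The labels call the 0dpr and 2dpr tissue bone callus, and per the extraction notes it was dissected as a composite of bone and the adjoining intercostal muscle, while marrow is named for baseline tissue only. Every value is therefore an average over the tissues of the sample. Fewer cells of a type and less RNA per cell cannot be told apart in such bulk samples. The labels do not state that replicates came from separate mice, and the p-values therefore measure the spread between libraries. This spread was estimated within the groups of all 39 analysed libraries of the series, not from these 8 alone.

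Cutting a bone opens its marrow, tears the muscle that is attached to it and fills the gap with a clot. Damaged cells and resident macrophages release chemokines, which draw neutrophils and then monocytes out of the blood, and the monocytes mature into macrophages that clear debris. Fibroblast-like cells lay down a provisional matrix at the same time, and progenitors of the periosteum later enter this matrix and form cartilage and bone. The second day falls within the inflammatory stage of this sequence.

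The 0dpr libraries held 7627765 to 11617195 reads and the 2dpr libraries 7884546 to 20936406 reads. Replicate 3 of 2dpr stood apart from the other libraries, with reads on 14214 genes where the other 7 libraries had reads on 19919 to 20823 genes. Of the genes detected in it only 5.832% had fewer than 10 reads, against 14.62% to 24.87% in the others. Missing genes in this replicate were mostly those of low level. Among genes at up to 0.5 CPM (the read count of a gene scaled to the size of its library) on average in the other 2dpr libraries 88.9% had no read in it, compared with 15.3% of genes between 5 and 10 CPM and 0.0701% of genes above 50 CPM. Some of the results that rest on this library are therefore also given without it.

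**Figure D1:**
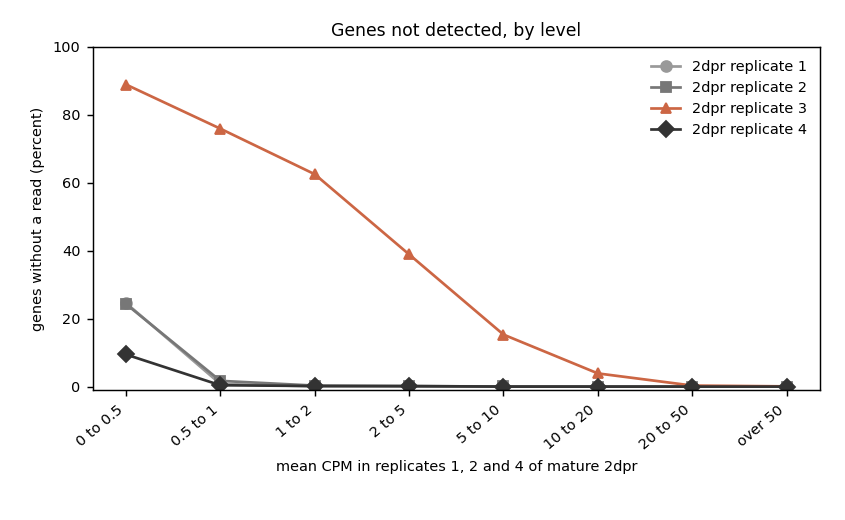
Share of genes without a read (vertical axis, percent) in each of the 4 mature 2dpr libraries, by the mean CPM of the gene over replicates 1, 2 and 4 (horizontal axis, bins in CPM). Replicate 3 lacks reads for 88.9% of genes in the lowest bin and for 15.3% of genes between 5 and 10 CPM, whereas all 4 libraries detect nearly every gene above 50 CPM.

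Gene expression differed widely between both days. With edgeR's quasi-likelihood test, 10100 of 21204 features (47.6%) passed an adjusted p of 0.05, and 4812 of them (22.7% of all features) were higher and 5288 (24.9%) lower at 2dpr. These shares are the background for every gene list below, and a median given after the counts of a list is the median log2 fold change of its tested members. The groups did not overlap for 14.7% of features that were higher and 19.9% that were lower at 2dpr. The median log2 fold change over all features was -0.0477 on the scale of trimmed mean of M-values (TMM). When libraries were scaled to total reads only, the median of all genes moved up by 0.267 and 61.7% rather than 47.6% of called genes were higher, so that small differences depend on the scaling. Without replicate 3 of 2dpr 10343 genes were called, of which 5186 (24.5%) were higher and 5157 (24.3%) lower. Of the genes called with all libraries 9005 were also called without it in the same direction, and 0 in the opposite direction.

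**Figure D2:**
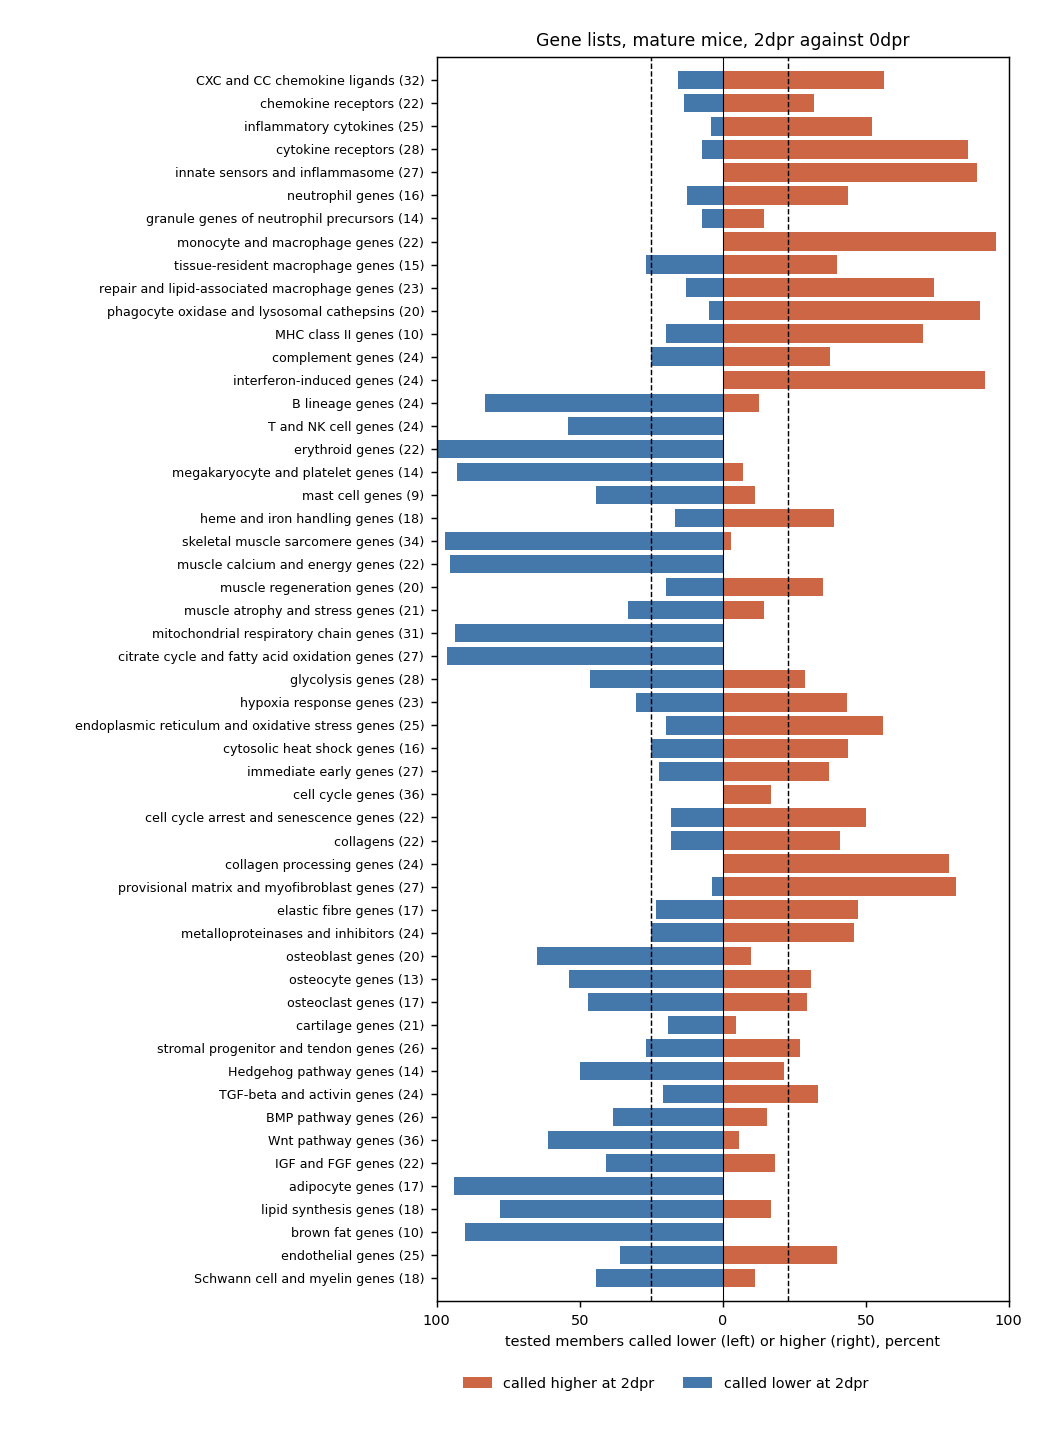
Share of the tested members of each gene list (horizontal axis, percent) that were called higher (to the right) or lower (to the left) at 2dpr than at 0dpr in mature mice, with the number of tested members in parentheses. Dashed lines mark the shares over all 21204 features, 22.7% higher and 24.9% lower. The monocyte and macrophage, innate sensor and interferon lists lie almost wholly to the right. The sarcomere, muscle calcium and energy, respiratory chain, erythroid and adipocyte lists lie almost wholly to the left. The lists of tissue-resident macrophages and of muscle regeneration reach to both sides.

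Chemokine ligands made up 7 of the 15 genes with the largest rise among those that met the naming rule given below. Of 32 tested CXC and CC ligands 18 were higher and 5 lower at 2dpr, with a median log2 fold change of 2.70. Cxcl3, which attracts neutrophils through the receptor CXCR2, had 0, 0, 0 and 0.139 CPM at 0dpr and 41.3, 18.5, 63.7 and 69.02 CPM at 2dpr. It was thus nearly silent on the day of resection, with 1 read in all 4 libraries together, and present in every library 2 days later. The pooled reads gave a ratio of 1568 with a 95% counting interval of 281 to 61960, and the fitted value was a log2 fold change 10.07, SE 0.70, adjusted p = 9.62e-13. Cxcl2, a second CXCR2 ligand, had 0.784, 0.125, 1.55 and 0.556 CPM at 0dpr and 98.7, 47.7, 46.3 and 292 CPM at 2dpr (log2 fold change 7.27, SE 0.73, adjusted p = 2.38e-10). Its lowest 2dpr library lay far above its highest 0dpr library, and replicate 4 was the highest at 2dpr. Cxcl5 had 0, 1.37, 0.332 and 0.972 CPM at 0dpr and 78.5, 24.2, 83.6 and 82.6 CPM at 2dpr (log2 fold change 6.60, SE 0.65, adjusted p = 1.52e-10), with replicate 2 of 2dpr below the other 3. Without replicate 4 of 0dpr Cxcl3 had no read at 0dpr, so that its fitted log2 fold change of 11.95 is no bound on the fold. Cxcl2 had a log2 fold change of 7.96 without replicate 3 of 0dpr and 6.35 without replicate 4 of 2dpr. Cxcl5 had a log2 fold change of 7.24 without replicate 2 of 0dpr.

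Ligands that attract monocytes were raised as well. Ccl2, the main ligand of CCR2 that calls monocytes out of the marrow, had 3.45, 2.49, 3.77 and 3.75 CPM at 0dpr and 798, 665, 298 and 356 CPM at 2dpr (log2 fold change 7.29, SE 0.39, adjusted p = 1.94e-16). Ccl7, which shares this receptor, had 3.45, 1.12, 2.22 and 2.78 CPM at 0dpr and 628, 485, 277 and 237 CPM at 2dpr (log2 fold change 7.43, SE 0.45, adjusted p = 2.41e-15). Both groups were separated without overlap for both genes, and replicates 1 and 2 of 2dpr were above replicates 3 and 4. Ccl2 (chr11:82035571-82037453, GRCm38), Ccl7 (chr11:82045712-82047525), Ccl12 (chr11:82101845-82103400) and Ccl8 (chr11:82115185-82116799) lie in a cluster on chromosome 11. Ccl12 (log2 fold change 6.93) and Ccl8 (6.20) were also higher. Not every CC ligand rose, and Ccl11 (log2 fold change -0.35, adjusted p = 0.319), named after its value was seen, was not called. Cxcl5 (chr5:90759360-90761624), Pf4 (chr5:90772435-90773383), Cxcl3 (chr5:90786103-90789600), Cxcl1 (chr5:90891241-90893115) and Cxcl2 (chr5:90903871-90905938) lie in a second cluster on chromosome 5. Of these, Cxcl1 rose by 2.07 and Pf4, a platelet and macrophage chemokine, by 2.07 on the log2 scale. Ppbp, another ligand of the list, was lower (log2 fold change -1.45, adjusted p = 0.00226) and was named after its value was seen. Cxcl12, the ligand with which stromal cells retain blood progenitors in the marrow, was lower too, with 293, 288, 215 and 334 CPM at 0dpr and 196, 126, 107 and 155 CPM at 2dpr (log2 fold change -0.95, SE 0.21, adjusted p = 0.000272).

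**Figure D3:**
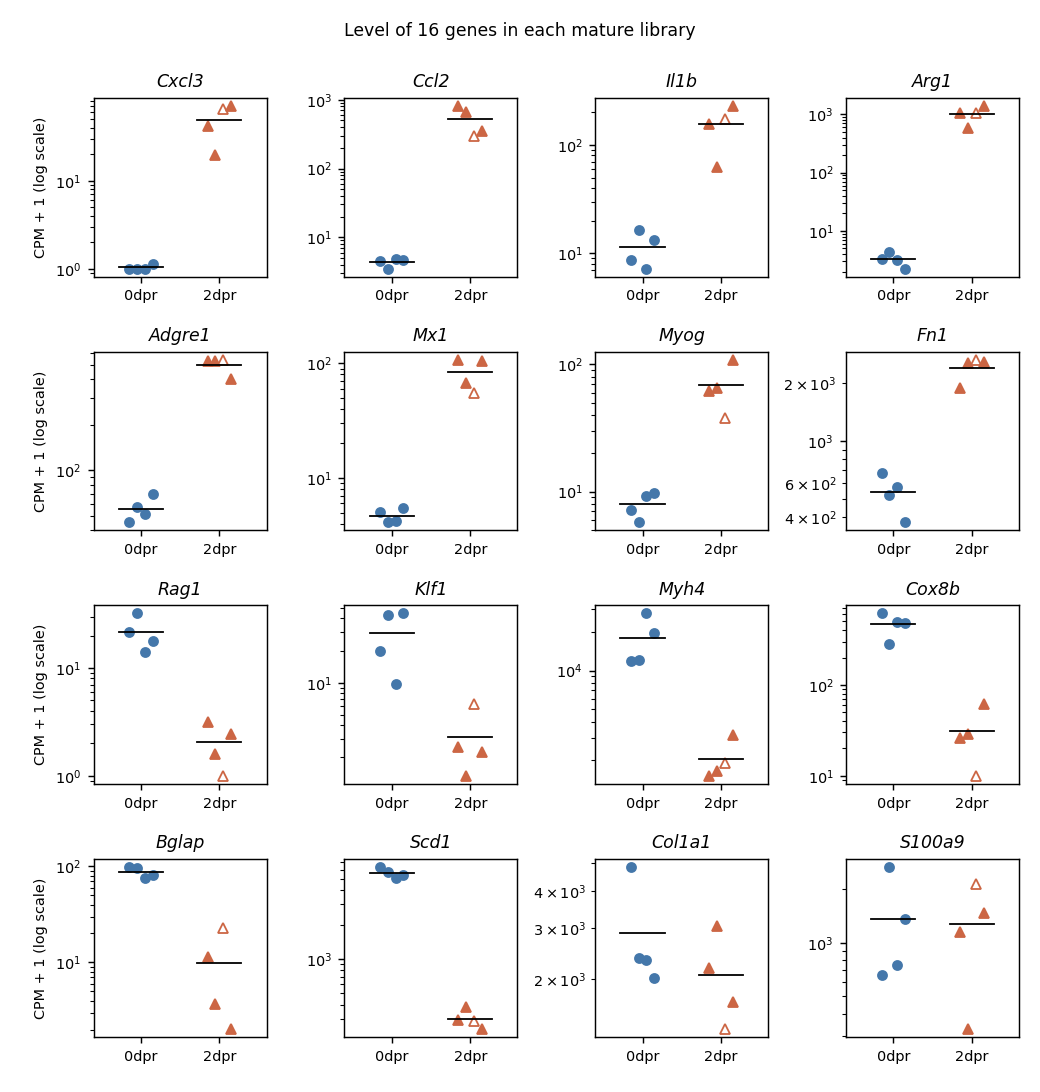
CPM of 16 genes in each mature library (vertical axis, CPM + 1 on a log scale), with 0dpr libraries as circles and 2dpr libraries as triangles, replicate 3 of 2dpr drawn open and bars at the group means. The 8 genes of the upper rows lie higher in every 2dpr library, the 6 genes from Rag1 to Scd1 lie lower, and the groups overlap for Col1a1 and S100a9.

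The promoters of these genes were searched for a form of the site of NF-kappaB, the transcription factor downstream of Toll-like and interleukin 1 receptors. GGG and TTTCC with any 2 bases between them, searched on both strands, stood in 1.89% of the 27025 genes with a promoter in the RefSeq table (GRCm38.p6; 250 bases before and 50 after the start). Among the chemokine ligands 5 of 23 genes with a promoter held it (Ccl20, Ccl9, Cxcl1, Cxcl2 and Cxcl3). All 5 were called higher, against 18 of all 32 tested ligands (Ccl20 not in the fit of the 8 libraries alone, adjusted p = 0.0818). The other 9 tested ligands, Ccl2, Ccl7 and Cxcl5 among them, had no promoter entry and were not searched. Among the inflammatory cytokines it was 4 of 19 genes, and among sarcomere genes 0 of 25. The stretches around the match are shown for the neighbouring Cxcl1, Cxcl2 and Cxcl3 and for Il6, with the motif in capitals, 5′ to 3′ on the strand of the gene and ending before its start.
Cxcl1 (chr5:90891131-90891190, plus strand): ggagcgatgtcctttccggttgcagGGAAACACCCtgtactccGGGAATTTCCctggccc
Cxcl2 (chr5:90903777-90903836, plus strand): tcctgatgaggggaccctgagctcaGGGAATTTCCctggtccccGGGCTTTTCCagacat
Cxcl3 (chr5:90786003-90786062, plus strand): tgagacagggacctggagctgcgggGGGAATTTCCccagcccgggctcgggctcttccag
Il6 (chr5:30013045-30013104, plus strand): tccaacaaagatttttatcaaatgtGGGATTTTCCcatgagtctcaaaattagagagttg
Cxcl1 and Cxcl2 each held 2 matches in the stretch shown, the first one of Cxcl1 on the opposite strand. A match describes the letters of the window only.

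Of 22 tested chemokine receptors 7 were higher and 3 lower (median -0.0017), and the other 12 did not pass the test. Ccr2 had 30.9, 90.6, 42.8 and 59.3 CPM at 0dpr and 754, 535, 917 and 696 CPM at 2dpr (log2 fold change 3.70, SE 0.29, adjusted p = 9.02e-13), with all 2dpr libraries above all 0dpr libraries. Cxcr2, the receptor of neutrophils, rose less, with 15.1, 31.1, 9.42 and 21.8 CPM at 0dpr and 60.1, 35.3, 69.7 and 108 CPM at 2dpr (log2 fold change 1.82, SE 0.43, adjusted p = 0.000612). Those that fell were Ccr6 (log2 fold change -2.94), Cxcr5 (-2.01) and Ccr9 (-1.87), which are carried mainly by lymphocytes, and the latter pair was named after its values were seen. Ccr6 had a log2 fold change of -3.58 without replicate 4 of 2dpr, and Ccr9 of -2.46 without replicate 4 of 2dpr. Cxcr5 (-2.01, adjusted p = 0.134) and Ccr9 (-1.91, adjusted p = 0.121) were not called in the fit of the 8 libraries alone.

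Inflammatory cytokines rose in 13 of 25 tested members and fell in 1, Il12a (-1.71, named after its value was seen). Il1b, the secreted form of interleukin 1 that macrophages and neutrophils release, had 7.69, 15.5, 6.205 and 12.4 CPM at 0dpr and 153, 61.8, 173 and 226 CPM at 2dpr (log2 fold change 3.88, SE 0.46, adjusted p = 9.32e-09). Its antagonist Il1rn rose at the same time, with 5.96, 10.4, 3.99 and 7.501 CPM at 0dpr and 146, 243, 96.1 and 199.7 CPM at 2dpr (log2 fold change 4.62, SE 0.45, adjusted p = 1.45e-10). Neither gene had a 2dpr library within the range of the 0dpr libraries. Tnf had 0.941, 3.74, 1.22 and 2.5 CPM at 0dpr and 30.9, 24.6, 12.8 and 25.2 CPM at 2dpr (log2 fold change 3.46, SE 0.43, adjusted p = 2.62e-08) and Il6, which acts on hepatocytes, lymphocytes and bone cells, had 0.471, 0.374, 0.222 and 0.278 CPM at 0dpr and 6.94, 3.64, 2.78 and 6.38 CPM at 2dpr (log2 fold change 3.86, SE 0.82, adjusted p = 0.000175). Both genes were higher in every 2dpr library than in any 0dpr library. Csf3, the growth factor of neutrophils, had no read at 0dpr and 1.32, 0.0866, 0 and 1.85 CPM at 2dpr, which is at least 2.04-fold higher against a floor of 3 reads in each 0dpr library. It had no read in replicate 3 of 2dpr. Because genes such as Csf3 have no finite fold change, the median of the list was 1.70 as fitted and 1.26 with such genes at their bound. The list's count of lower members was 2 without replicate 3 of 2dpr and 3 without replicate 4 of 2dpr. Il12a (-1.68, adjusted p = 0.0533) and Csf3 (adjusted p = 0.0591) were not called in the fit of the 8 libraries alone.

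Receptors for cytokines and sensors of microbes and damage changed almost in one direction. Of 28 tested cytokine receptors 24 were higher and 2 lower (median 1.82). The decoy receptor Il1r2, which binds interleukin 1 without signalling, had 3.61, 4.62, 4.21 and 5.695 CPM at 0dpr and 43.9, 25.6, 80.04 and 93.9 CPM at 2dpr (log2 fold change 3.74, SE 0.45, adjusted p = 1.37e-08), and Il4ra, the receptor chain for interleukins 4 and 13, rose by 3.33 on the log2 scale. Among 27 tested innate sensors 24 were higher and 0 lower (median 2.36). Cd14, the coreceptor for bacterial lipopolysaccharide, had 10.2, 7.73, 12.2 and 9.72 CPM at 0dpr and 179, 138, 165 and 179 CPM at 2dpr (log2 fold change 4.05, SE 0.33, adjusted p = 2.25e-12), and Tlr13, a sensor of bacterial ribosomal RNA, had 10.5, 23.5, 9.42 and 14.4 CPM at 0dpr and 234, 282, 211 and 264 CPM at 2dpr (log2 fold change 4.10, SE 0.27, adjusted p = 2.21e-14). Clec4d (4.33) and Clec4e (4.07), lectin receptors of myeloid cells, were among the largest changes of the list.

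Neutrophil genes did not move as one group. Of 16 tested members 7 were higher and 2 lower (median 0.68). S100a9, a calcium-binding protein of neutrophils, had 656, 2658, 751 and 1352 CPM at 0dpr and 1153, 326, 2122 and 1475 CPM at 2dpr (log2 fold change -0.094, SE 0.51, adjusted p = 0.896), and its partner S100a8 459, 2169.8, 588 and 988 CPM at 0dpr and 926, 246, 1363 and 991 CPM at 2dpr (log2 fold change -0.25, SE 0.51, adjusted p = 0.713). Values of the groups overlapped, and replicate 2 was the highest of the 0dpr libraries and the lowest of the 2dpr libraries for both genes. By contrast, Stfa2l1 (3.95), Il1r2 (3.74) and Trem1 (3.17), a receptor that amplifies inflammatory signals, were higher at 2dpr. In all, 1 member was called lower without replicate 2 of 0dpr or replicate 2 of 2dpr. Granule proteins that are made by neutrophil precursors in the marrow were mostly not called, with 2 of 14 higher and 1 lower (Camp, log2 fold change -1.73, SE 0.64, adjusted p = 0.0243), and a median of -0.93. Without replicate 3 of 2dpr 6 of the 14 were called lower, and Camp had a log2 fold change of -2.60, while no member was called lower when replicate 2 of 0dpr, replicate 2 of 2dpr or replicate 4 of 2dpr was left out. S100a9 had a log2 fold change of 0.49 without replicate 2 of 0dpr and 0.23 without replicate 2 of 2dpr, and S100a8 of 0.41 without replicate 2 of 0dpr and 0.057 without replicate 2 of 2dpr. Camp had a log2 fold change of -1.07 without replicate 2 of 0dpr (adjusted p = 0.183), -1.41 without replicate 2 of 2dpr (adjusted p = 0.084) and -1.45 without replicate 4 of 2dpr (adjusted p = 0.0798). Camp (-1.46, adjusted p = 0.0633) was not called with libraries scaled to total reads. Camp (-1.72, adjusted p = 0.0796) was not called in the fit of the 8 libraries alone.

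Macrophage genes were higher almost throughout. Of 22 tested genes of monocytes and macrophages 21 were higher and 0 lower, with a median log2 fold change of 2.69, and their summed level ran from 1457 to 2877 CPM at 0dpr and 9674 to 11423 CPM at 2dpr. Ms4a6d, a membrane protein of macrophages, had 5.49, 6.86, 5.98 and 6.53 CPM at 0dpr and 431, 350.4, 343 and 354 CPM at 2dpr (log2 fold change 5.89, SE 0.23, adjusted p = 7.94e-20). Fcgr1, the high-affinity receptor for IgG, had 4.86, 4.99, 5.097 and 6.81 CPM at 0dpr and 402, 349, 212 and 370.3 CPM at 2dpr (log2 fold change 5.94, SE 0.32, adjusted p = 2.21e-16). Adgre1, which encodes the F4/80 antigen, had 44.2, 56.1, 50.1 and 68.5 CPM at 0dpr and 527, 528, 537 and 398 CPM at 2dpr (log2 fold change 3.18, SE 0.24, adjusted p = 4.86e-13). In all 3 genes the lowest 2dpr library was several times the highest 0dpr library, and Ly6c2, a marker of freshly recruited monocytes, was the single member that was not called (log2 fold change 0.74, SE 0.45, adjusted p = 0.181).

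Arg1 had the second largest fold change of all genes that met the naming rule. This enzyme breaks down arginine and is known from macrophages in repair. It had 2.35, 3.37, 2.22 and 1.25 CPM at 0dpr and 1053, 583, 1046 and 1368 CPM at 2dpr (log2 fold change 8.77, SE 0.85, adjusted p = 1.09e-10). Of the 23 tested genes of repair and lipid-associated macrophages 17 were higher and 3 lower (median 2.39). Spp1 (osteopontin), an adhesive phosphoprotein that macrophages as well as osteoblasts secrete, had 280.2, 234, 98.2 and 266 CPM at 0dpr and 2592, 7107, 3463 and 4484 CPM at 2dpr (log2 fold change 4.33, SE 0.47, adjusted p = 1.26e-09). Gpnmb, a lysosomal glycoprotein, had 15.2, 40.8, 20.2 and 48.3 CPM at 0dpr and 198, 1020.2, 269 and 467 CPM at 2dpr (log2 fold change 3.97, SE 0.48, adjusted p = 1.38e-08), and Mmp12, the macrophage elastase, 0.471, 1.87, 1.33 and 7.22 CPM at 0dpr and 142, 87.9, 83.8 and 156 CPM at 2dpr (log2 fold change 5.44, SE 0.48, adjusted p = 1.24e-11). Replicate 2 was the highest 2dpr library for both Spp1 and Gpnmb, and all 2dpr libraries were above all 0dpr libraries. Members that were lower were Slc40a1 (-1.72), the exporter of iron, Vegfa (-1.31) and Lpl (-1.47), a lipase that fat cells and muscle also make and that was named after its value was seen. Gpnmb had a log2 fold change of 3.32 without replicate 2 of 2dpr, and Mmp12 of 6.54 without replicate 4 of 0dpr.

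Genes of lysosomes and of the phagocyte oxidase were higher in 18 of 20 tested members (median 1.77). Ctss, a cathepsin of antigen-presenting cells, had 51.9, 107, 80.0 and 93.5 CPM at 0dpr and 1752, 1767, 1386 and 1962 CPM at 2dpr (log2 fold change 4.37, SE 0.25, adjusted p = 6.39e-16), and 1 member, Tfeb (-1.05), a regulator of lysosome genes named after its value was seen, was called lower. Genes of tissue-resident macrophages were split, with 6 of 15 higher and 4 lower (median -0.77). Folr2, a folate receptor of macrophages (log2 fold change 3.77, SE 0.30, adjusted p = 1.53e-12), and Mrc1, the mannose receptor (log2 fold change 2.60, SE 0.24, adjusted p = 4.44e-11), rose. Spic (-1.79), the transcription factor of iron-recycling macrophages, fell, and Timd4, a receptor for dying cells, had 4.08, 5.61, 4.21 and 3.19 CPM at 0dpr and 1.65, 0.693, 4.44 and 0.879 CPM at 2dpr (log2 fold change -1.20, SE 0.60, adjusted p = 0.0949). For Timd4 replicate 3 of 2dpr lay within the 0dpr range, and without it the log2 fold change was -1.996 (adjusted p = 0.00787). Spic had a log2 fold change of -2.47 without replicate 3 of 2dpr. Tfeb (-1.03, adjusted p = 0.132) and Spic (-1.75, adjusted p = 0.058) were not called in the fit of the 8 libraries alone. Timd4 (-1.89, adjusted p = 0.0211) was called with limma voom.

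Complement and antigen presentation changed in part. Among 24 tested complement genes 9 were higher and 6 lower (median -0.17). The members that rose included the C1q subunits, which macrophages make, and C3ar1, the receptor for the C3a fragment, which had 10.7, 9.36, 9.97 and 8.06 CPM at 0dpr and 430.1, 476, 324 and 495 CPM at 2dpr (log2 fold change 5.50, SE 0.22, adjusted p = 1.61e-19), and C5ar1 (3.91). Of 10 tested genes of MHC class II presentation 7 were higher and 2 lower (median 0.66), and the changes were small, with H2-DMb1 at 1.45 and H2-Ab1 at 0.66. This count fell to 3 when replicate 1 of 0dpr, replicate 1 of 2dpr or replicate 4 of 2dpr was left out, and to 4 without replicate 3 of 0dpr. The count of lower members was 1 without replicate 3 of 0dpr, replicate 1 of 2dpr or replicate 3 of 2dpr. H2-Ab1 had a log2 fold change of 0.52 without replicate 1 of 0dpr (adjusted p = 0.149), 0.61 without replicate 3 of 0dpr (adjusted p = 0.0975), 0.51 without replicate 1 of 2dpr (adjusted p = 0.147) and 0.42 without replicate 4 of 2dpr (adjusted p = 0.219). H2-Ab1 (0.58, adjusted p = 0.0742) was not called with DESeq2's size factors in edgeR. H2-Ab1 (0.57, adjusted p = 0.0684) was not called with DESeq2. H2-Ab1 (0.61, adjusted p = 0.0534) was not called with another filter on low counts. H2-Ab1 (0.68, adjusted p = 0.204) was not called in the fit of the 8 libraries alone.

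Interferon-induced genes rose in 22 of 24 tested members and fell in 0, with a median log2 fold change of 2.496. Mx1, a GTPase that blocks viruses, had 4.08, 3.12, 3.21 and 4.45 CPM at 0dpr and 106, 66.8, 54.2 and 103 CPM at 2dpr (log2 fold change 4.48, SE 0.42, adjusted p = 4.92e-11). Oas1a, which makes the activator of RNase L, had 4.39, 7.24, 7.42 and 8.196 CPM at 0dpr and 147, 104, 74.8 and 100.3 CPM at 2dpr (log2 fold change 3.96, SE 0.34, adjusted p = 8.81e-12), and Ifit1, which binds foreign RNA, had 13.8, 8.86, 12.4 and 10.8 CPM at 0dpr and 148, 82.9, 71.9 and 105 CPM at 2dpr (log2 fold change 3.15, SE 0.39, adjusted p = 2.33e-08). The groups were fully apart for these 3 genes, with replicate 1 the highest of the 2dpr libraries. The interferon-stimulated response element was added to the motif search after the counts for the others had been seen. Its letters, GAAA followed by GAAA with any 2 bases between them, stood on either strand in 3.99% of all genes with a promoter and in 11 of 17 genes of the list with one. Among chemokine ligands it was 3 of 23, and among sarcomere genes 0 of 25. The letters are shown in capitals in 3 of them, on the strand of the gene and ending before its start.
Ifit1 (chr19:34640760-34640819, plus strand): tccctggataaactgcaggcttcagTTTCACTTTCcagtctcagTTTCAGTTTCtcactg
Ifit3 (chr19:34583348-34583407, plus strand): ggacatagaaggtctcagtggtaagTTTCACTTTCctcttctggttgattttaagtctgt
Oas1a (chr5:120907526-120907570, minus strand): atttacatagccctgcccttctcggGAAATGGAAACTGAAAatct
In Oas1a 2 matches overlap, and in Ifit1 2 matches stand on the opposite strand.

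B lineage genes were mostly lower, and T and NK cell genes in part. Of 24 tested genes of the B lineage 20 were lower and 3 higher, and the median log2 fold change was -3.03 (-2.95 with genes that lacked reads in a group at their bound). Rag1, the recombinase of lymphocyte precursors, had 20.7, 31.1, 13.1 and 16.8 CPM at 0dpr and 2.15, 0.606, 0 and 1.43 CPM at 2dpr (log2 fold change -4.18, SE 0.91, adjusted p = 0.000263). No 2dpr library lay within the 0dpr range, and replicate 3 of 2dpr had no read of this gene. Igll1, part of the receptor of B cell precursors, had 82 reads at 0dpr and 1 at 2dpr, a ratio of 145 with a 95% counting interval of 25.4 to 5811. The 3 members that rose were Cd72 (1.68), Cd37 (1.15) and Blnk (1.07), named after their values were seen. Among 24 tested T and NK cell genes 13 were lower and 0 higher (median -1.92). The count of lower members was 6 in the fit of the 8 libraries alone. In replicate 3 of 2dpr 15 of the 24 genes had no read, and without this library 16 were called lower. Cd4 had 6.43, 13.6, 9.197 and 19.4 CPM at 0dpr and 2.23, 1.13, 3.33 and 2.22 CPM at 2dpr (log2 fold change -2.46, SE 0.41, adjusted p = 5.76e-06), with all 2dpr libraries below the lowest 0dpr library.

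Genes of red cell and platelet precursors were lower across their lists. All 22 tested erythroid genes were lower, with a median log2 fold change of -2.81. Hbb-bs, an adult beta globin, had 6558, 14166, 8081 and 11917 CPM at 0dpr and 1974, 705, 2515 and 1014 CPM at 2dpr (log2 fold change -2.71, SE 0.45, adjusted p = 4.62e-06), where reads of the near-identical globin copies may have been split by the counting. Klf1, the transcription factor of red cell precursors, had 18.8, 42.3, 8.75 and 43.5 CPM at 0dpr and 1.49, 0.346, 5.33 and 1.25 CPM at 2dpr (log2 fold change -3.84, SE 0.80, adjusted p = 0.000151) and marks nucleated precursors rather than mature red cells. Its 4 values at 0dpr varied widely but stayed above those at 2dpr. Without replicate 3 of 2dpr the log2 fold change of Klf1 was -4.72. Of 14 tested genes of megakaryocytes and platelets 13 were lower (median -2.96), such as Itga2b (log2 fold change -3.06, SE 0.38, adjusted p = 2.46e-08), and 1, Pf4, was higher (69.6, 156, 67.7 and 139.9 CPM at 0dpr and 477, 506, 403 and 435 CPM at 2dpr). The summed level of the erythroid list was 14185 to 27794 CPM at 0dpr and 1265 to 4309 CPM at 2dpr. Of 18 tested genes of heme and iron handling 7 were higher and 3 lower (median 0.17), and of 9 mast cell genes 1 was higher and 4 lower (median -0.55).

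Contractile genes of skeletal muscle were lower almost throughout. Of 34 tested sarcomere genes 33 were lower and 1 higher, and the median log2 fold change was -2.89. Their summed level was 133433 to 263003 CPM at 0dpr and 18252 to 34189.7 CPM at 2dpr. Ttn, the giant spring protein of the sarcomere, had 52739, 46212, 90042 and 35273 CPM at 0dpr and 5580.5, 6686, 9510.1 and 10136 CPM at 2dpr (log2 fold change -2.81, SE 0.34, adjusted p = 1.51e-08), and Myh4, the heavy chain of fast fibres, had 11904, 12038, 27798 and 19719.9 CPM at 0dpr and 1521, 1645, 1904 and 3140.2 CPM at 2dpr (log2 fold change -3.12, SE 0.36, adjusted p = 4.29e-09). Tcap, which anchors titin at the Z disc, had 1657, 773, 1487 and 883 CPM at 0dpr and 53.04, 75.3, 54.4 and 129.8 CPM at 2dpr (log2 fold change -3.94, SE 0.36, adjusted p = 2.87e-11). Replicate 4 of 2dpr was the highest 2dpr library for all 3, and still below the lowest 0dpr library. The exception in the list was Tpm3 (0.66), a tropomyosin that many cells outside muscle also make, named here after its value was seen. Genes of muscle calcium and energy handling were lower in 21 of 22 tested members and higher in 0 (median -3.26). Pvalb, the calcium buffer of fast fibres, had 2129, 1791, 3457 and 4031 CPM at 0dpr and 111, 99.0, 132 and 209.9 CPM at 2dpr (log2 fold change -4.37, SE 0.41, adjusted p = 4.68e-11), and the creatine kinase gene Ckm had 9682, 5152, 11948 and 7752 CPM at 0dpr and 619.9, 770.2, 484 and 1803 CPM at 2dpr (log2 fold change -3.23, SE 0.38, adjusted p = 9.86e-09).

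The site of the muscle transcription factor MEF2, CTA and TAG with 4 bases between them that are each A or T, stood in 0.636% of all genes with a promoter. It stood in 2 of 25 sarcomere genes with one (Myoz2 and Ttn), in 0 of 16 genes of muscle calcium and energy handling and in 0 of 23 chemokine ligands. With any 4 bases in between, it was 4.23% of all genes and 4, 1 and 1 of these lists. The search with A or T was added after the looser one had been seen. The stretches of these genes are shown because they hold it, with the motif in capitals, and this palindrome reads alike on both strands.
Myoz2 (chr3:123034988-123035045, minus strand): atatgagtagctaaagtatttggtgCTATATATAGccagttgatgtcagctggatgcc
Ttn (chr2:76982679-76982738, minus strand): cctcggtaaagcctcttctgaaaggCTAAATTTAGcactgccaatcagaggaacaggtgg
Log2 fold changes were -2.15 for Myoz2 and -2.81 for Ttn.

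Genes of muscle repair diverged from the contractile genes. Myog, which drives myoblasts into differentiation, had 6.12, 4.74, 8.199 and 8.75 CPM at 0dpr and 61.3, 64.8, 37.2 and 107 CPM at 2dpr (log2 fold change 3.28, SE 0.30, adjusted p = 4.58e-11), and Ankrd1, a stress-induced titin-binding protein, had 12.5, 13.7, 22.7 and 14.4 CPM at 0dpr and 257, 229.7, 273 and 341 CPM at 2dpr (log2 fold change 4.11, SE 0.24, adjusted p = 1.63e-15). Both were separated by group in every library. The fusion protein Mymk had 0, 0.125, 0.886 and 0.278 CPM at 0dpr and 2.31, 4.504, 0 and 2.41 CPM at 2dpr and Mymx 0, 0, 0 and 0.139 CPM at 0dpr and 0.496, 1.91, 0 and 2.13 CPM at 2dpr, and neither had a read in replicate 3 of 2dpr. Pax7, the marker of satellite cells, had 3.92, 0.873, 1.44 and 3.06 CPM at 0dpr and 1.98, 4.24, 0 and 2.13 CPM at 2dpr (log2 fold change -0.11, SE 0.56, adjusted p = 0.888), and Myod1 did not pass the test (log2 fold change 0.09, SE 0.26, adjusted p = 0.805). Of 20 tested genes of muscle regeneration 7 were higher and 4 lower (median 0.10), the latter including Mstn (myostatin, 25.4, 30.7, 46.5 and 45.1 CPM at 0dpr and 2.31, 3.205, 6.66 and 2.13 CPM at 2dpr, log2 fold change -3.41, SE 0.31, adjusted p = 2.65e-11) and Chrne (-5.10), the acetylcholine receptor subunit of mature nerve contacts. The subunit of embryonic or denervated muscle, Chrng, was higher (2.28). Of 21 tested genes of muscle atrophy and stress 3 were higher and 7 lower (median -0.24). Mymk had a log2 fold change of 3.95 without replicate 3 of 0dpr. Without replicate 4 of 0dpr Mymx had no read at 0dpr, so that its fitted log2 fold change of 6.62 is no bound on the fold. Pax7 had a log2 fold change of 0.22 without replicate 1 of 0dpr, 0.083 without replicate 4 of 0dpr and 0.28 without replicate 3 of 2dpr, and Myod1 of -0.059 without replicate 2 of 0dpr and -0.019 without replicate 2 of 2dpr. Chrne had a log2 fold change of -5.93 without replicate 4 of 2dpr, and Chrng of 2.94 without replicate 1 of 0dpr. Mymk (2.77, adjusted p = 0.116) and Chrng (2.24, adjusted p = 0.114) were not called in the fit of the 8 libraries alone.

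Genes of oxidative metabolism were lower. Of 31 tested genes of the respiratory chain 29 were lower and 0 higher (median -1.60), and of 27 genes of the citrate cycle and fatty acid oxidation 26 were lower and 0 higher (median -1.82). Cox8b, a muscle and brown fat form of a cytochrome oxidase subunit, had 609.7, 283, 494 and 478 CPM at 0dpr and 24.9, 27.5, 8.99 and 60.2 CPM at 2dpr (log2 fold change -3.92, SE 0.36, adjusted p = 3.24e-11). Reads from the mitochondrial genome made up 5.156% to 6.783% of a library at 0dpr and 2.46% to 3.718% at 2dpr. Glycolysis genes were split, with 13 of 28 lower and 8 higher (median -0.43). The muscle isoforms Eno3 (log2 fold change -3.28, SE 0.29, adjusted p = 1.55e-11), Pgam2 (log2 fold change -3.31, SE 0.28, adjusted p = 5.23e-12) and the insulin-regulated glucose transporter Slc2a4 (log2 fold change -3.90, SE 0.26, adjusted p = 2.83e-14) fell. Among their counterparts outside muscle, which were chosen after their values were seen, Eno1 rose by 1.62, Pgam1 by 2.21 and Slc2a1 by 1.82 on the log2 scale.

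Genes known to respond to low oxygen did not change in one direction, and oxygen itself was not measured. Hif1a, the oxygen-regulated transcription factor, had 61.5, 69.6, 55.1 and 61.5 CPM at 0dpr and 446, 378, 584 and 327 CPM at 2dpr (log2 fold change 2.81, SE 0.18, adjusted p = 1.01e-14), whereas its relative Epas1 had 351, 101, 145 and 95.6 CPM at 0dpr and 34.8, 44.3, 13.4 and 80.03 CPM at 2dpr (log2 fold change -1.99, SE 0.35, adjusted p = 1.30e-05). Vegfa, the growth factor for blood vessels and a known target of both, had 175, 103, 179 and 123 CPM at 0dpr and 55.9, 44.6, 38.97 and 93.1 CPM at 2dpr (log2 fold change -1.31, SE 0.23, adjusted p = 1.23e-05). The groups did not overlap for these 3 genes. Of 23 tested hypoxia genes 10 were higher and 7 lower (median 0.34), which is 43.5% and 30.4% against 22.7% and 24.9% of all features. ACGTG, the core of the hypoxia response element, stood in the promoters of 13 of 16 of these genes and in 21.8% of all genes with a promoter. Of the 13 genes, 5 were called higher and 4 lower.

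Stress and early response genes also went in both directions. Slc7a11, which imports cystine for glutathione, had 3.45, 4.62, 3.102 and 3.75 CPM at 0dpr and 41.3, 27.02, 58.1 and 95.2 CPM at 2dpr (log2 fold change 3.89, SE 0.43, adjusted p = 1.79e-09), and Hmox1, which breaks down heme, rose by 3.04 on the log2 scale. Of 25 tested genes of endoplasmic reticulum and oxidative stress 14 were higher and 5 lower (median 0.67), and of 16 cytosolic heat shock genes 7 were higher and 4 lower (median 0.38). Without replicate 3 of 0dpr these heat shock counts were 4 and 2, and the latter was also 2 without replicate 4 of 0dpr or replicate 1 of 2dpr. Among 27 immediate early genes 10 were higher and 6 lower (median 0.10). Socs3, the feedback inhibitor of interleukin 6 signalling, had 18.7, 12.7, 14.3 and 17.5 CPM at 0dpr and 119.6, 83.2, 153 and 203 CPM at 2dpr (log2 fold change 3.15, SE 0.34, adjusted p = 1.66e-09). Nr4a1, an orphan nuclear receptor, had 136, 65.1, 127 and 82.8 CPM at 0dpr and 17.2, 19.4, 6.11 and 22.8 CPM at 2dpr (log2 fold change -2.63, SE 0.41, adjusted p = 1.72e-06), and Egr1 had 80.8, 28.7, 100.1 and 47.9 CPM at 0dpr and 11.1, 15.5, 2.998 and 34.3 CPM at 2dpr (log2 fold change -1.98, SE 0.50, adjusted p = 0.00134). The groups overlapped for Egr1, where replicate 4 of 2dpr was above replicate 2 of 0dpr. Fosl1, a partner of JUN in AP-1, was nearly absent at 0dpr and had 6.36, 7.36, 0.111 and 7.36 CPM at 2dpr, with replicate 3 far below the other 3. The AP-1 letters TGANTCA, searched on both strands, stood in 8.97% of all genes with a promoter and in 0 of 22 promoters of immediate early genes, 5 of 23 of chemokine ligands and 7 of 19 of inflammatory cytokines. Of these, 2 ligands were called higher and 2 lower, and 4 cytokines were called higher. Egr1 had a log2 fold change of -2.69 without replicate 4 of 2dpr.

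Most genes of cell division did not pass the test. Of 36 tested members 6 were higher (16.7%, against 22.7% of all features) and 0 lower, with a median of 0.17. Ccnd1, the cyclin of early G1, had 38.6, 27.6, 33.5 and 25.6 CPM at 0dpr and 125, 146, 73.9 and 61.2 CPM at 2dpr (log2 fold change 1.70, SE 0.21, adjusted p = 1.54e-08), and its kinase Cdk4 had 51.5, 58.6, 48.9 and 80.4 CPM at 0dpr and 142, 154, 104 and 106 CPM at 2dpr (log2 fold change 1.08, SE 0.14, adjusted p = 4.32e-08). Mki67, the marker of cycling cells, had 323, 802, 221 and 407 CPM at 0dpr and 289.6, 266, 566 and 166 CPM at 2dpr (log2 fold change -0.45, SE 0.38, adjusted p = 0.348), and Top2a 106, 361, 96.5 and 301 CPM at 0dpr and 219, 210.5, 363 and 98.3 CPM at 2dpr (log2 fold change 0.043, SE 0.36, adjusted p = 0.934). The groups overlapped for both, and replicate 3 was the highest of the 2dpr libraries. The count of members called higher was 3 without replicate 3 of 0dpr, 11 without replicate 2 of 0dpr, 10 without replicate 4 of 0dpr and 12 without replicate 4 of 2dpr. Here 1 member was called lower without replicate 3 of 0dpr. The count of higher members was also 12 when libraries were scaled to total reads only. In immature mice 26 of the 36 genes were higher at 2dpr, and the difference between the ages passed the test for 0 of them. Among 22 genes of cell cycle arrest 11 were higher and 4 lower (median 0.32), with Cdkn1a, the p21 inhibitor, at log2 fold change 1.39, SE 0.27, adjusted p = 6.75e-05. Mki67 had a log2 fold change of 0.054 without replicate 2 of 0dpr, and Top2a of -0.21 without replicate 1 of 0dpr, -0.22 without replicate 3 of 0dpr and -0.30 without replicate 3 of 2dpr.

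Genes of the provisional matrix were mostly higher. Of 27 tested genes of this matrix and of myofibroblasts 22 were higher and 1 lower (median 2.14). Fn1 (fibronectin), the first scaffold for cells that enter a clot, had 677, 523, 576 and 375 CPM at 0dpr and 1878, 2541, 2633 and 2565 CPM at 2dpr (log2 fold change 2.16, SE 0.34, adjusted p = 2.33e-06). Tnc (tenascin C), an adhesion-modulating protein of healing tissue, had 354, 319, 271 and 392 CPM at 0dpr and 1363, 2083, 1449 and 527 CPM at 2dpr (log2 fold change 2.02, SE 0.31, adjusted p = 1.44e-06). Timp1, an inhibitor of metalloproteinases, had 12.7, 6.24, 6.32 and 12.6 CPM at 0dpr and 318, 229.7, 109 and 209 CPM at 2dpr (log2 fold change 4.53, SE 0.32, adjusted p = 1.13e-13). Vcan, a large proteoglycan, had 37.96, 29.2, 38.2 and 39.3 CPM at 0dpr and 459, 499, 682 and 313 CPM at 2dpr (log2 fold change 3.75, SE 0.27, adjusted p = 1.70e-13), and Has2, the main synthase of hyaluronan, had 2.98, 3.74, 3.32 and 5.56 CPM at 0dpr and 66.7, 77.7, 76.8 and 15.1 CPM at 2dpr (log2 fold change 3.91, SE 0.42, adjusted p = 1.43e-09). The 2dpr libraries were above all 0dpr libraries for these genes, and replicate 4 of 2dpr was the lowest of them for Tnc, Vcan and Has2. Acta2, the actin of smooth muscle and myofibroblasts, did not pass the test (log2 fold change 0.46, SE 0.26, adjusted p = 0.14). Acta2 had a log2 fold change of 0.68 without replicate 4 of 0dpr (adjusted p = 0.0398) and 0.68 without replicate 4 of 2dpr (adjusted p = 0.023). Acta2 (0.74, adjusted p = 0.0108) was called with libraries scaled to total reads. Acta2 (0.65, adjusted p = 0.0333) was called with limma voom.

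Enzymes that process collagen were higher, and collagens themselves were split. Of 24 tested processing genes 19 were higher and 0 lower (median 1.24), while of 22 tested collagens 9 were higher and 4 lower (2 without replicate 3 of 0dpr), with a median of 0.40. Col3a1, the fibrillar collagen of early wounds, had 924, 754, 898 and 1044 CPM at 0dpr and 4611, 5124, 3952 and 4731 CPM at 2dpr (log2 fold change 2.35, SE 0.22, adjusted p = 8.27e-11). Col1a1, the main collagen of bone and tendon, had 4844, 2363, 2332 and 2012 CPM at 0dpr and 2187, 3036, 1347 and 1669 CPM at 2dpr (log2 fold change -0.49, SE 0.39, adjusted p = 0.319), and its groups overlapped, with replicate 1 the highest at 0dpr. Col22a1, which is found at the junction of muscle and tendon, had 65.4, 60.0, 79.8 and 68.3 CPM at 0dpr and 13.96, 8.66, 7.88 and 4.302 CPM at 2dpr (log2 fold change -2.99, SE 0.35, adjusted p = 8.50e-09). Lox, which crosslinks collagen and elastin, had 41.3, 52.6, 48.1 and 50.8 CPM at 0dpr and 382, 388, 404 and 257 CPM at 2dpr (log2 fold change 2.89, SE 0.18, adjusted p = 7.98e-15), and Loxl3 had 17.4, 16.1, 16.95 and 19.7 CPM at 0dpr and 134, 193, 94.7 and 84.2 CPM at 2dpr (log2 fold change 2.85, SE 0.21, adjusted p = 3.56e-13). Elastic fibre genes were split (8 higher and 4 lower of 17, median 0.43), with Emilin2 at 2.30 and Ltbp4, which tethers latent TGF-beta, at -2.33. Of 24 metalloproteinases and inhibitors 11 were higher and 6 lower (median 0.52), and the former included Mmp3 (2.60) and Adam8 (4.28).

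Genes of bone-forming cells were mostly lower at 2dpr. Of 20 tested osteoblast genes 13 were lower and 2 higher (median -1.53), and of 13 osteocyte genes 7 were lower and 4 higher (median -1.75). The count of lower osteoblast genes was 8 in the fit of the 8 libraries alone. Bglap (osteocalcin), a bone matrix protein of mature osteoblasts whose reads may be shared with its near-identical copy Bglap2, had 97.3, 93.9, 74.6 and 80.4 CPM at 0dpr and 10.5, 2.69, 21.6 and 1.02 CPM at 2dpr (log2 fold change -3.34, SE 0.72, adjusted p = 0.00024). Sp7, the transcription factor that commits cells to osteoblasts, had 18.4, 13.1, 14.7 and 17.9 CPM at 0dpr and 4.54, 4.68, 8.44 and 0.231 CPM at 2dpr (log2 fold change -1.91, SE 0.52, adjusted p = 0.00269), and Alpl, the phosphatase of mineralisation, had 79.5, 48.8, 59.8 and 72.6 CPM at 0dpr and 19.5, 21.6, 25.3 and 6.15 CPM at 2dpr (log2 fold change -1.86, SE 0.37, adjusted p = 6.48e-05). Sost (sclerostin), the Wnt inhibitor of osteocytes, had 7.69, 7.36, 1.22 and 14.4 CPM at 0dpr and 0.248, 0.2598, 0 and 0.0463 CPM at 2dpr (log2 fold change -5.72, SE 0.89, adjusted p = 1.61e-06), and Dmp1, another osteocyte protein, had 37.6, 19.1, 6.65 and 18.1 CPM at 0dpr and 3.22, 2.25, 6.55 and 1.48 CPM at 2dpr (log2 fold change -2.66, SE 0.56, adjusted p = 0.000148). All 5 genes were lower in every 2dpr library than in any 0dpr library. Replicate 3 was the highest 2dpr library for Bglap, Sp7, Alpl and Dmp1, and without it the log2 fold change of Bglap was -4.26. The osteoblast gene that rose most was Spp1 and the osteocyte gene that rose most was Pdpn (16.3, 15.5, 18.4 and 18.1 CPM at 0dpr and 335, 255, 186 and 260.3 CPM at 2dpr, log2 fold change 3.92, SE 0.23, adjusted p = 9.30e-16), and macrophages are known to express Spp1 and fibroblasts and lymphatic vessels Pdpn. Sp7 (-1.85, adjusted p = 0.0682) was not called in the fit of the 8 libraries alone.

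Osteoclast genes were split, and most cartilage genes did not pass the test. Of 17 tested osteoclast genes 8 were lower and 5 higher (median -0.98). Acp5, the acid phosphatase of osteoclasts, had 219, 225, 204 and 252 CPM at 0dpr and 52.05, 49.6, 124 and 50.01 CPM at 2dpr (log2 fold change -1.71, SE 0.33, adjusted p = 4.39e-05), and Ctsk, the collagen-degrading cathepsin, had 139, 200.1, 155 and 233 CPM at 0dpr and 75.9, 71.7, 209.9 and 66.6 CPM at 2dpr (log2 fold change -0.78, SE 0.34, adjusted p = 0.0564). Replicate 3 was the highest 2dpr library for both genes, and without it Ctsk had a log2 fold change of -1.35 (adjusted p = 0.000884). Of 21 tested cartilage genes 1 was higher, Sox9 (4.71, 1.37, 1.66 and 2.08 CPM at 0dpr and 3.39, 4.42, 13.99 and 2.41 CPM at 2dpr, log2 fold change 1.30, SE 0.50, adjusted p = 0.0309), and 4 were lower, with a median of 0.96 (0.87 with genes at their bound). Sox9, the transcription factor of cartilage progenitors, was highest in replicate 3 of 2dpr, and without this library its log2 fold change was 0.48 (adjusted p = 0.406). The count of higher cartilage genes was 4 without replicate 4 of 2dpr, 2 without replicate 1 of 2dpr and 0 without replicate 2 or replicate 3 of 0dpr. Col2a1, the collagen of cartilage, had 42.8, 18.6, 6.43 and 10.3 CPM at 0dpr and 2.48, 52.7, 7.55 and 2.17 CPM at 2dpr (log2 fold change -0.27, SE 1.13, adjusted p = 0.868), with replicate 2 of 2dpr and replicate 1 of 0dpr the highest of their groups. Ctsk had a log2 fold change of -0.92 without replicate 1 of 0dpr (adjusted p = 0.0399), and Sox9 of 1.14 without replicate 2 of 0dpr (adjusted p = 0.0849), 1.12 without replicate 3 of 0dpr (adjusted p = 0.101) and 1.27 without replicate 4 of 0dpr (adjusted p = 0.0598). Col2a1 had a log2 fold change of 0.44 without replicate 1 of 0dpr, 0.095 without replicate 1 of 2dpr and 0.12 without replicate 4 of 2dpr. Ctsk (-0.84, adjusted p = 0.0429) was called with DESeq2's size factors in edgeR. Ctsk (-0.84, adjusted p = 0.0314) was called with DESeq2. Ctsk (-1.27, adjusted p = 0.00149) was called with limma voom. Ctsk (-0.82, adjusted p = 0.0417) was called with another filter on low counts. Sox9 (0.75, adjusted p = 0.345) was not called with limma voom. Sox9 (1.30, adjusted p = 0.171) was not called in the fit of the 8 libraries alone.

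Wnt, Hedgehog and BMP genes, which govern skeletal development, were called lower more often than higher. Of 36 tested Wnt genes 22 were lower and 2 higher (median -1.14), and the latter count was 0 without replicate 1 of 0dpr or of 2dpr and 1 without replicate 2 of either day or replicate 3 of 0dpr. Axin2, a feedback target of the canonical pathway, had 18.04, 11.2, 13.1 and 11.3 CPM at 0dpr and 2.396, 3.12, 1.67 and 5.46 CPM at 2dpr (log2 fold change -2.04, SE 0.28, adjusted p = 1.47e-07). Lef1, a transcription factor of the pathway, was lower (log2 fold change -2.97, SE 0.66, adjusted p = 0.000297), and so were the inhibitors Dkk1 (-3.03) and Wif1 (-2.24). Of 14 tested Hedgehog genes 7 were lower and 3 higher (1 without replicate 3 of 0dpr), with a median of -0.63. In the fit of the 8 libraries alone 3 of them were called lower and 1 higher. The pathway targets Gli1 (5.804, 2.62, 6.76 and 4.31 CPM at 0dpr and 1.82, 2.25, 0 and 2.31 CPM at 2dpr, log2 fold change -1.56, SE 0.47, adjusted p = 0.0064), Ptch1 (log2 fold change -0.76, SE 0.21, adjusted p = 0.00258) and Hhip (log2 fold change -1.89, SE 0.52, adjusted p = 0.00309) all fell. Shh, a ligand, was called higher, but its 2 reads at 0dpr and 32 at 2dpr gave a ratio of 9.03 with a 95% counting interval of 2.303 to 77.7. Its call was lost when any single library other than replicate 2 of 0dpr or replicate 3 of 2dpr was left out (adjusted p = 0.0524 to 0.0978), with DESeq2 (adjusted p = 0.126), without the filter on low counts (adjusted p = 0.0754) and in the fit of the 8 libraries alone (adjusted p = 0.104). Gli1 (-1.56, adjusted p = 0.186) and Hhip (-1.90, adjusted p = 0.0649) were not called in the fit of the 8 libraries alone. Ptch1 (-0.47, adjusted p = 0.0574) was not called with libraries scaled to total reads.

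Of 26 tested BMP pathway genes 10 were lower and 4 higher (median -0.51). The count of lower members was 4 in the fit of the 8 libraries alone. Bmp4, a ligand that promotes bone formation, had 12.2, 13.6, 12.5 and 11.3 CPM at 0dpr and 4.96, 5.28, 2.11 and 5.37 CPM at 2dpr (log2 fold change -1.47, SE 0.30, adjusted p = 9.30e-05). Of 24 tested TGF-beta and activin genes 8 were higher and 5 lower (median 0.30), and the count of higher members was 14 when libraries were scaled to total reads only. Inhba, which encodes activin A, had 2.04, 2.99, 2.11 and 0.972 CPM at 0dpr and 20.7, 22.8, 13.99 and 11.7 CPM at 2dpr (log2 fold change 3.07, SE 0.44, adjusted p = 3.16e-07), and Tgfb3 had a log2 fold change of -1.47. Among 22 IGF and FGF genes 9 were lower and 4 higher (median -0.48). Igfbp5, an IGF-binding protein of bone and muscle, had 610.2, 461, 559.6 and 507 CPM at 0dpr and 145, 112, 127 and 116 CPM at 2dpr (log2 fold change -2.10, SE 0.17, adjusted p = 1.30e-12). Of 26 tested genes of stromal progenitors and tendon 7 were higher and 7 lower (median -0.16).

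Genes of adipocytes and of lipid synthesis were lower. Of 17 tested adipocyte genes 16 were lower and 0 higher (median -1.91), and of 18 lipid synthesis genes 14 were lower and 3 higher (median -2.17). Scd1, a fatty acid desaturase, had 6369, 5725, 5109 and 5373 CPM at 0dpr and 289, 383, 285 and 242 CPM at 2dpr (log2 fold change -4.23, SE 0.56, adjusted p = 8.91e-08). Fasn, the fatty acid synthase, had 7542, 1646, 3176 and 2388 CPM at 0dpr and 120.4, 195, 97.7 and 99.4 CPM at 2dpr (log2 fold change -4.85, SE 0.57, adjusted p = 8.75e-09), and Thrsp, a regulator of fat synthesis, 344, 101, 206 and 254 CPM at 0dpr and 4.13, 4.94, 2.66 and 4.12 CPM at 2dpr (log2 fold change -5.82, SE 0.58, adjusted p = 2.05e-10). Scd1 was even across the 0dpr libraries, whereas Fasn and Thrsp were highest in replicate 1. Genes of brown fat were lower in 9 of 10 (median -4.59, or -4.37 with genes at their bound). Ucp1, the uncoupling protein that defines brown fat, had 851, 30.3, 105 and 6.95 CPM at 0dpr and 0.744, 0.693, 0 and 0.694 CPM at 2dpr (log2 fold change -8.71, SE 1.92, adjusted p = 0.000291), with replicate 1 of 0dpr far above the others. The part of the amount of fat in the sampled tissue was not tested. Fasn had a log2 fold change of -4.26 without replicate 1 of 0dpr, and Ucp1 of -6.37 without replicate 1 of 0dpr. Ucp1 (-6.33, adjusted p = 0.135) was not called with limma voom.

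Vessel genes were split, and nerve genes were called lower more often than higher. Of 25 tested endothelial genes 10 were higher and 9 lower (median -0.16). Apln, a peptide of sprouting tip cells, had 3.76, 1.75, 3.88 and 2.78 CPM at 0dpr and 86.2, 52.8, 25.98 and 20.1 CPM at 2dpr (log2 fold change 3.92, SE 0.37, adjusted p = 8.48e-11), and Angpt1, which stabilises vessels, had 34.5, 62.0, 55.3 and 56.5 CPM at 0dpr and 13.1, 9.79, 13.9 and 11.1 CPM at 2dpr (log2 fold change -2.13, SE 0.21, adjusted p = 1.35e-10). Its antagonist Angpt2 had 9.73, 6.99, 4.1 and 11.7 CPM at 0dpr and 49.7, 43.1, 7.66 and 21.5 CPM at 2dpr (log2 fold change 1.92, SE 0.33, adjusted p = 8.88e-06), with replicate 3 of 2dpr within the 0dpr range. Pecam1, carried by nearly all endothelial cells, differed little (log2 fold change 0.31, SE 0.12, adjusted p = 0.0334). Of 18 tested Schwann cell and myelin genes 8 were lower and 2 higher (median -0.77). In the fit of the 8 libraries alone 3 of these were called lower and 1 higher, and 6 endothelial genes were called higher. Pecam1 had a log2 fold change of 0.24 without replicate 1 of 0dpr (adjusted p = 0.149), 0.29 without replicate 2 of 0dpr (adjusted p = 0.0654), 0.23 without replicate 1 of 2dpr (adjusted p = 0.138) and 0.27 without replicate 2 of 2dpr (adjusted p = 0.0942). Pecam1 (0.23, adjusted p = 0.109) was not called with DESeq2's size factors in edgeR. Pecam1 (0.23, adjusted p = 0.0952) was not called with DESeq2. Pecam1 (0.26, adjusted p = 0.0646) was not called with another filter on low counts. Pecam1 (0.33, adjusted p = 0.157) was not called in the fit of the 8 libraries alone.

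The naming rule took the 15 largest and 15 smallest log2 fold changes among 5636 called genes with a mean of at least 5 CPM and no overlap between the groups. Among those raised were Acod1 (log2 fold change 7.71, SE 0.70, adjusted p = 3.06e-11), which makes itaconate in activated macrophages, and Steap1 (6.24), a membrane metalloreductase, besides 7 chemokines and Arg1. The others were Gm10800, Gm10801, Gm10722, Gm11168 and Gm26870, predicted gene models among which reads of related sequence may be split and which are uncertain for this reason. Gm10800 had 0.471, 0.374, 2.55 and 0.417 CPM at 0dpr and 316, 635, 101 and 18.8 CPM at 2dpr, so that replicates 1 and 2 of 2dpr stood far above the others. Among the genes that fell most were the immunoglobulin variable segments Igkv6-20 (-8.46) and Ighv1-55 (-7.57), the brown fat genes Ucp1, Cidea (-7.29) and Elovl3 (-5.34), Aqp4 (-5.86), a water channel of fast muscle fibres, and Gys2 (-5.29), a glycogen synthase. Alb (albumin), a liver gene, had 156, 264, 16.3 and 13.3 CPM at 0dpr and 6.77, 3.64, 0 and 0.324 CPM at 2dpr (log2 fold change -5.42, SE 1.60, adjusted p = 0.00538), with replicates 1 and 2 of 0dpr above the other 6 libraries. Its source was not tested. Steap1 had a log2 fold change of 7.59 without replicate 2 of 0dpr, and Gm10800 of 9.26 without replicate 3 of 0dpr and 7.14 without replicate 2 of 2dpr. Igkv6-20 had a log2 fold change of -4.26 without replicate 3 of 0dpr and -9.27 without replicate 2 of 2dpr, and Ighv1-55 of -4.32 without replicate 3 of 0dpr and -9.86 without replicate 4 of 2dpr. Cidea had a log2 fold change of -5.72 without replicate 1 of 0dpr and -8.39 without replicate 4 of 2dpr, and Elovl3 of -2.56 without replicate 1 of 0dpr (adjusted p = 0.0546). Gys2 had a log2 fold change of -6.69 without replicate 4 of 2dpr, and Alb of -4.52 without replicate 2 of 0dpr and -6.48 without replicate 1 of 2dpr. Igkv6-20 (-5.75, adjusted p = 0.0591), Ighv1-55 (-6.95, adjusted p = 0.0522) and Elovl3 (-2.78, adjusted p = 0.0503) were not called with limma voom.

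The same comparison in immature mice called 21.8% of features higher and 22.2% lower at 2dpr. A test of whether mature and immature mice changed unequally between both days passed an adjusted p of 0.05 for 13 of 21204 features (0.0613%) with edgeR, and for 2382 at an unadjusted p of 0.05. Klhl2, an adaptor of ubiquitin ligases, had 21.96, 22.2, 21.3 and 20.8 CPM at 0dpr and 36.3, 36.9, 38.2 and 40.2 CPM at 2dpr in mature mice and a difference between the ages of 0.998 (SE 0.17, adjusted p = 0.0124). Ankrd10 differed by 1.05 (SE 0.19, adjusted p = 0.0169). Trem2, the lipid-sensing receptor of macrophages, had 6.59, 8.11, 2.66 and 9.03 CPM at 0dpr and 108, 184, 99.9 and 172 CPM at 2dpr in mature mice and rose less than in immature mice, with a difference of -2.01 (SE 0.37, adjusted p = 0.0279). Sln (sarcolipin), an inhibitor of the muscle calcium pump, fell in mature mice (11.6, 37.5, 40.1 and 38.9 CPM at 0dpr and 5.37, 3.205, 1.89 and 9.67 CPM at 2dpr), and the difference from immature mice was -2.78 (SE 0.55, adjusted p = 0.0405). Scgb2b27, a secretoglobin, differed by -2.60 (SE 0.51, adjusted p = 0.0405). Without replicate 3 of 2dpr the difference passed for 3 features, Klhl2 and Ankrd10 among them. With DESeq2 it passed for 111 features, with limma voom for 0 (1580 at an unadjusted p of 0.05), and in the fit of the 16 libraries of both ages at 0dpr and 2dpr for 0 (1085 at an unadjusted p of 0.05). Leaving out single libraries gave 3 to 32 features, the lowest without replicate 4 of 0dpr or replicate 3 of 2dpr and the highest without replicate 4 of 2dpr.

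**Figure D4:**
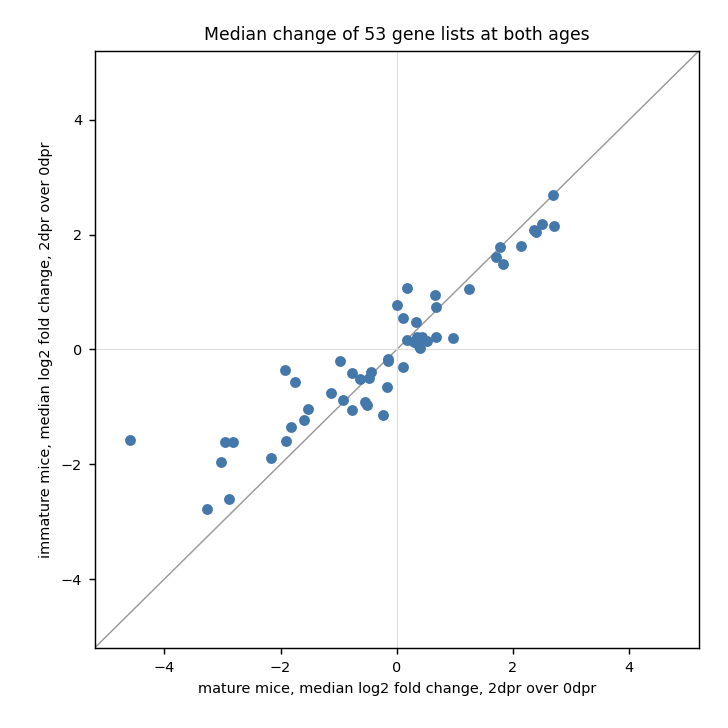
Median log2 fold change from 0dpr to 2dpr of the tested members of each of 53 gene lists in mature mice (horizontal axis) and in immature mice (vertical axis), with the line of equal values. The monocyte and macrophage list and the interferon list lie in the upper right, and the sarcomere, erythroid and brown fat lists in the lower left. The list of tissue-resident macrophages lies in the lower left (-0.77 and -0.41) and that of muscle regeneration in the upper right (0.10 and 0.55).

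Levels at the other stages place the 2dpr values in the course of mature mice. Means at baseline, 0dpr, 2dpr, 5dpr and 14dpr were 0.989, 3.37, 529, 114 and 45.8 CPM for Ccl2 and 0.496, 2.297, 1012, 212 and 28.03 CPM for Arg1, so that both had their highest mean at 2dpr among the stages sampled. Spp1 had means of 576, 219.6, 4412, 1638 and 1419 CPM and Col3a1 of 882, 905, 4605, 16302 and 22254 CPM. The mean of Spp1 was also highest at 2dpr, whereas that of Col3a1 was highest at 14dpr. Myh4 had means of 7235, 17865, 2052, 1761 and 2426 CPM and Bglap of 318, 86.5, 8.96, 27.2 and 74.3 CPM, so that Bglap was lowest at 2dpr and Myh4 at 5dpr. All groups had 4 libraries apart from 5dpr, which had 3, and these values are given as a description.

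**Figure D5:**
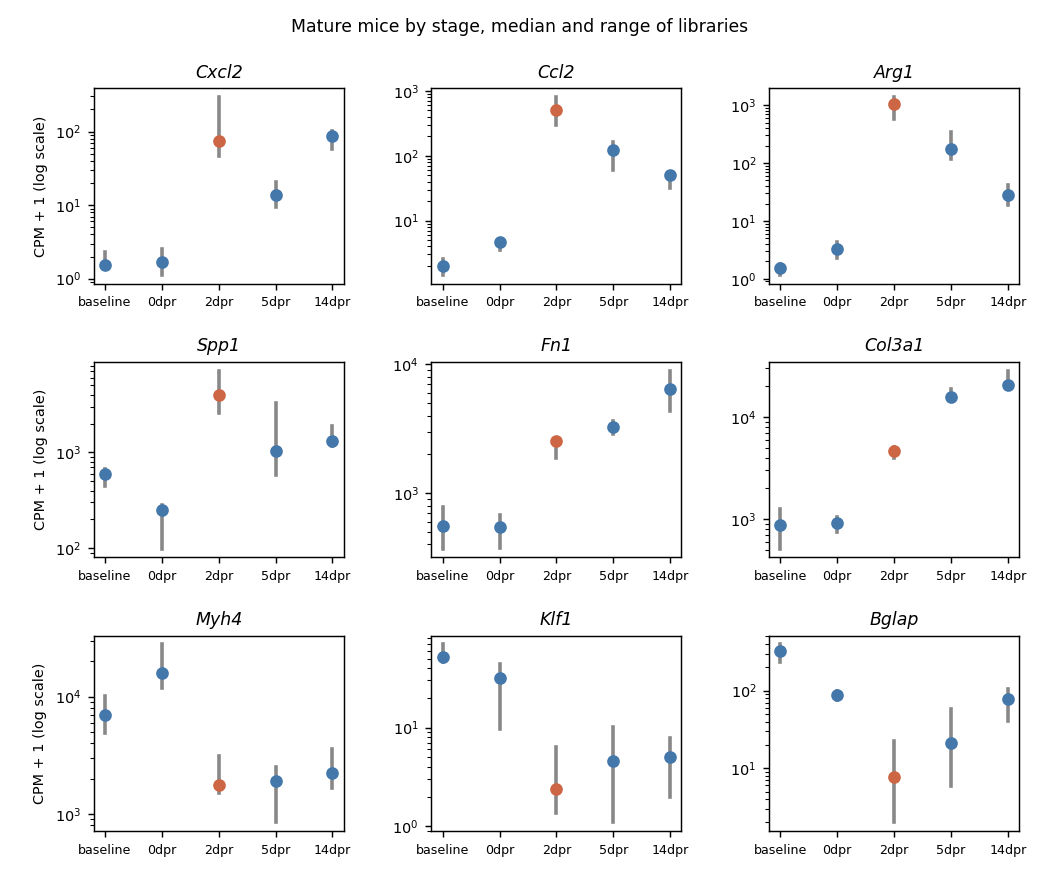
CPM of 9 genes in mature mice at baseline, 0dpr, 2dpr, 5dpr and 14dpr (horizontal axis), with medians as points and the lowest and highest library as bars (vertical axis, CPM + 1 on a log scale; 4 libraries a stage, 3 at 5dpr). Ccl2 and Arg1 have their highest median at 2dpr, and Cxcl2 has its highest median at 14dpr.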

How the data were processed

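Total RNA of rib tissue from 40 samples was sequenced as stranded paired-end libraries, pooled over separate runs whose membership is not given in the sources used here. Per the methods and the labels, the authors mapped reads to GRCm38 and deposited read counts per gene (STAR 2.5.2a), as a full table of 48733 features and a filtered table of 21204, with a filter rule not given in the sources used here. They also deposited a signal table of TMM-scaled CPM, used here to pair identifiers with symbols. 1 mature 5dpr sample had no column and was not analysed here, which left 39 libraries.

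The quasi-likelihood test of edgeR 4.0.16 (R 4.3.3) was run on the filtered counts after TMM scaling, 1 coefficient for each age and stage over all 39 libraries. Mature 2dpr was contrasted with mature 0dpr, and this change between ages, with Benjamini-Hochberg adjustment over all features at 0.05. CPM are TMM-scaled. List counts and medians are read against the shares and the median over all features. Bounds use a floor of 3 reads per library, and intervals cover counting error only.

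The genes named were the 15 largest and 15 smallest changes among called genes of at least 5 CPM without overlap, 4 lead members and up to 6 called members with the largest changes of each of 53 lists, and the 6 smallest adjusted p for the difference between ages. The members and lists were chosen with earlier results of these data known. Some genes that meet this rule are not reported here. Of 1100 list genes 799 had a RefSeq promoter. Alternatives were other size factors, total reads, TMM without muscle and mitochondrial genes, DESeq2 1.42.0, limma voom 3.58.1 with quality weights, other filters and thresholds, other sets of libraries, a replicate block and each library left out.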

Additional observations from a re-analysis of the deposited data

Results flagged for a closer look

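In a group of 4 libraries a value was singled out when its gap to the nearest other value was above Dixon's 95% critical value as a share of the whole range. For genes the gap and the range were taken on log2 CPM, with a small count added, while the values printed below are CPM. Library measures were taken without a log. Chance does this in about 1 of 20 groups. Among 169 of the genes named, with 338 groups of libraries, 28 groups had such a library, 11 at 0dpr and 17 at 2dpr. Replicate 1 of 0dpr was higher than the other 3 libraries for Eno1 (432 CPM, the others 187 to 199 CPM) and Pgam1 (44.5 CPM, the others 19.9 to 22.2 CPM). Replicate 1 of 0dpr was lower than the other 3 libraries for Sln (11.6 CPM, the others 37.5 to 40.1 CPM). Replicate 2 of 0dpr was higher than the other 3 libraries for Il12a (7.73 CPM, the others 3.47 to 3.99 CPM). Replicate 2 of 0dpr was lower than the other 3 libraries for Vcan (29.2 CPM, the others 38.0 to 39.3 CPM). Replicate 3 of 0dpr was higher than the other 3 libraries for Gm10800 (2.55 CPM, the others 0.374 to 0.471 CPM) and Myoz2 (279 CPM, the others 194 to 198 CPM). Replicate 3 of 0dpr was lower than the other 3 libraries for Bglap2 (40.4 CPM, the others 66.1 to 70.7 CPM). Replicate 4 of 0dpr was higher than the other 3 libraries for Cxcl3 (0.139 CPM, the others 0 CPM), Fcgr1 (6.81 CPM, the others 4.86 to 5.1 CPM) and Mymx (0.139 CPM, the others 0 CPM). Replicate 1 of 2dpr was higher than the other 3 libraries for Ms4a6d (431 CPM, the others 343 to 354 CPM). Replicate 1 of 2dpr was lower than the other 3 libraries for Fn1 (1880 CPM, the others 2540 to 2630 CPM). Replicate 2 of 2dpr was lower than the other 3 libraries for Cxcl5 (24.2 CPM, the others 78.5 to 83.6 CPM). Replicate 3 of 2dpr was higher than the other 3 libraries for Acp5 (124 CPM, the others 49.6 to 52.0 CPM) and Ctsk (210 CPM, the others 66.6 to 75.9 CPM). Replicate 3 of 2dpr was lower than the other 3 libraries for Blnk (18.7 CPM, the others 29.0 to 30.0 CPM), Bmp4 (2.11 CPM, the others 4.96 to 5.37 CPM) and Fosl1 (0.111 CPM, the others 6.36 to 7.36 CPM). The same held for Gli1 (0 CPM, the others 1.82 to 2.31 CPM) and Ucp1 (0 CPM, the others 0.693 to 0.744 CPM). Replicate 4 of 2dpr was higher than the other 3 libraries for Emilin2 (401 CPM, the others 269 to 287 CPM), Igll1 (0.0463 CPM, the others 0 CPM) and Pgam2 (130 CPM, the others 71.0 to 78.4 CPM). Replicate 4 of 2dpr was lower than the other 3 libraries for Adgre1 (398 CPM, the others 527 to 537 CPM), Aqp4 (0.37 CPM, the others 1.4 to 1.78 CPM) and Has2 (15.1 CPM, the others 66.7 to 77.7 CPM). The same held for Lox (257 CPM, the others 382 to 404 CPM). Among library measures, replicate 3 of 2dpr had the fewest genes with a read (14200 rounded, the others 20200 to 20800) and replicate 4 of 2dpr the smallest share of mitochondrial reads (2.46%, the others 3.56% to 3.72%).

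The change from 0dpr to 2dpr differed between ages, by edgeR's test of the difference itself, for 13 genes. Given as mature minus immature log2 fold change, the difference was 0.998 for Klhl2, 1.05 for Ankrd10, -2.01 for Trem2, -2.60 for Scgb2b27 and -2.78 for Sln. It was 0.87 for S1pr1, -2.98 for Myh3, 1.12 for Fgl2, 6.38 for 8030453O22Rik, 5.35 for Gm37652, 1.19 for Lox and -5.95 for G530011O06Rik. Of the last group of 7, Lox and Myh3 met the naming rule as list members. The others fell outside it and were named after their values were seen. Without replicate 3 of 2dpr the call held for Klhl2 and Ankrd10 among these. 8030453O22Rik had no read at mature 0dpr, so that its fitted value is no bound on the fold.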

How the results depend on the processing

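The direction and the side of the threshold held in 2776 of 2870 recomputed values of 169 of the genes printed. Of the other values, 61 lost their call, 12 gained one and 21 changed sign. Called genes numbered 6119 (2999 higher, 3120 lower) in a fit of the 8 libraries alone, where fewer libraries set the spread, and 6311 (2462 higher) with an absolute log2 fold change of at least 1. Leaving out each library gave 9111 to 10343 called genes, 4151 to 5186 higher and 4944 to 5404 lower. Genes that differed between ages numbered 111 with DESeq2, 0 in the fit of 16 libraries and 3 to 32 with a library left out. Same-numbered libraries did not deviate together (mean correlation -0.147, range -0.22 to -0.0466), and a replicate block left 9743 genes called and 6 differed between ages. Counts of list members moved by over 1.5 times in 91 of 1802 recomputed counts. Signs changed for genes that had not passed the test. Without replicate 1 of 0dpr Col2a1 was at 0.44, Pax7 at 0.22 and Top2a at -0.21. Without replicate 2 of 0dpr Mki67 was at 0.054, Myod1 at -0.059, S100a8 at 0.41 and S100a9 at 0.49. Top2a was at -0.22 without replicate 3 of 0dpr, and Pax7 at 0.083 without replicate 4 of 0dpr. Leaving out 2dpr libraries gave Col2a1 0.095 (replicate 1) and 0.12 (replicate 4), Myod1 -0.019, S100a8 0.057 and S100a9 0.23 (replicate 2), and Pax7 0.28 and Top2a -0.30 (replicate 3). With total reads as the scale Pax7 was at 0.14 and S100a9 at 0.15, with limma voom Pax7 was at 0.36, and Top2a was at -0.012 with DESeq2's size factors and -0.011 with DESeq2. The other ends of the ranges with a library left out were -2.33 for Col2a1, -0.87 for Mki67, 0.25 for Myod1, -0.67 for Pax7, -0.54 for S100a8 and -0.46 for S100a9. The causes were not tested. Genes under a few CPM are limited by replicate 3 of 2dpr, in which most had no read.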
